A study of Mus musculus with 12 samples.

Results

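Transcripts of 8 genes of the TNF superfamily were followed in naive CD8 T cells during activation. They comprise 5 ligands (Tnfsf11, Tnfsf14, Tnfsf8, Lta and Fasl) and 3 receptors (Tnfrsf9, Tnfrsf4 and Tnfrsf25), picked by gene symbol from the 12885 symbols of the deposited expression table. The choice was made with earlier results of these data known. All 8 had values in each of the 12 libraries and passed the filter on low values. The cells were sorted as CD8+ CD62Lhi CD44lo/- after negative selection, from spleens of female C57Bl/6 mice aged 6 weeks. The animals were Zn4, homozygous for Ikaros-Zn4-/- and so lacking the zinc finger of Ikaros that gives the allele its name, or wild type (WT). The Zn4 groups were Zn4 at 0 h (resting, harvested directly), at 12 h and at 24 h on plates coated with antibodies to CD3 and CD28, and the WT groups were the same 3 times, with 2 libraries in each of the 6 groups. The mice carry the mutation in all cells, so the T cells also developed with it. The labels do not say whether the libraries of a group come from separate animals, so p-values measure only the spread between these samples.

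Ligands of the TNF superfamily are trimeric proteins on the cell surface or in solution that cluster their receptors on the same or on neighbouring cells. Receptors without a death domain, such as 4-1BB (Tnfrsf9) and OX40 (Tnfrsf4), recruit TRAF adaptors and signal through NF-kB to support the survival and division of T cells, whereas receptors with a death domain, such as Fas and DR3 (Tnfrsf25), can also engage death adaptors. Naive T cells hold few of the inducible members and gain them after contact with antigen. Ikaros (Ikzf1) is a zinc finger DNA-binding protein of lymphocytes whose amino-terminal fingers, the one lost in Zn4 among them, contact DNA.

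The libraries held 24263907 to 33389808 reads, and for a transcript of 2 kb the level of 3 reads is 0.0449 to 0.0618 RPKM. Ikzf1 itself lay between 90.9 and 139 RPKM in every library, but a value per gene does not resolve the missing finger and so checks no label. The CD8 T cell markers Cd3e, Cd3d, Cd8a and Cd8b1 were all present, with a summed level of 919 to 940 RPKM in resting Zn4 cells and 832 to 841 RPKM in resting WT cells. The sum was 690 to 704 RPKM in Zn4 cells and 908 to 978 RPKM in WT cells at 12 h, and 589 to 697 RPKM in Zn4 cells and 916 to 947 RPKM in WT cells at 24 h. Of the marker lists for other cells, dendritic and erythroid genes are not listed in the table, and Cd4 stayed at or below 2.09 RPKM. Itgam, the one myeloid gene of 5 that is listed, was at 1.04 to 1.16 RPKM in resting Zn4 cells and at 0.179 to 0.190 RPKM in resting WT cells. It was at or below 0.083 RPKM after stimulation. Itgam passed the filter on low values only through the resting Zn4 libraries, so no p-value is given for its difference (0.83 on the log2 scale). Cd79b was the one B cell gene of 5 that is listed, at 0.298 to 0.609 RPKM in Zn4 cells and 1.58 to 2.32 RPKM in WT cells at 12 h, and at 1.56 to 1.73 RPKM in Zn4 cells and 6.53 to 6.62 RPKM in WT cells at 24 h. Klrk1, the one natural killer gene of 4 that is listed and one that activated CD8 T cells also express, reached at most 3.87 RPKM in Zn4 cells and 2.85 RPKM in WT cells, both at 24 h. The part of these genes' cells in the results was not tested. Of the 12 h libraries, 3 stand apart: the summed level of 4 Y-linked genes was 43.4 and 21.0 RPKM in the Zn4 libraries at 12 h and 38.9 RPKM in replicate 1 of WT at 12 h, against at most 0.0209 RPKM in all others, although every label says female. Xist was at 0.0258, 24.3 and 0.0023 RPKM in these libraries, in the same order, and at 27.2 to 82.7 RPKM in the others. Their part in the 12 h results was not tested beyond the values given with the 12 h differences of the 8 genes: those without each of these libraries, and those of a fit with the Y-linked sum as a covariate. Both Zn4 libraries at 12 h carry Y-linked transcripts, so leaving out either leaves a Zn4 group that still does. The covariate rests mainly on the WT pair at 12 h. These fits therefore cannot fully separate the Y-linked level from the 12 h values of Zn4 cells.

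Differences are limma estimates on the log2(RPKM + 1) scale, given with their standard error (SE). Adjusted p is the Benjamini-Hochberg value over the 12726 genes tested in a comparison, and a gene with an adjusted p under 0.05 is called. Because 1 RPKM was added before the logarithm, these differences understate the change of a gene that lies near or below 1 RPKM in a group. Between Zn4 and WT, 2 of the 8 genes were called at rest, where 5.72% of all tested genes were called (3.76% higher and 1.96% lower in Zn4 cells). At 12 h 5 of 8 were called, 4 higher and 1 lower, beside 13.1% of all tested genes (4.85% higher and 8.28% lower). At 24 h 4 of 8 were called, all higher, beside 19.4% of all tested genes (9.4% higher and 9.96% lower). The median difference of the 8 genes was 0.40 at rest, 0.61 at 12 h and 0.84 at 24 h, beside medians of -0.02, -0.01 and -0.02 over all tested genes. Because the 8 genes were chosen with earlier results of these data known, these counts and medians are no test against all genes.

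**Figure D1:**
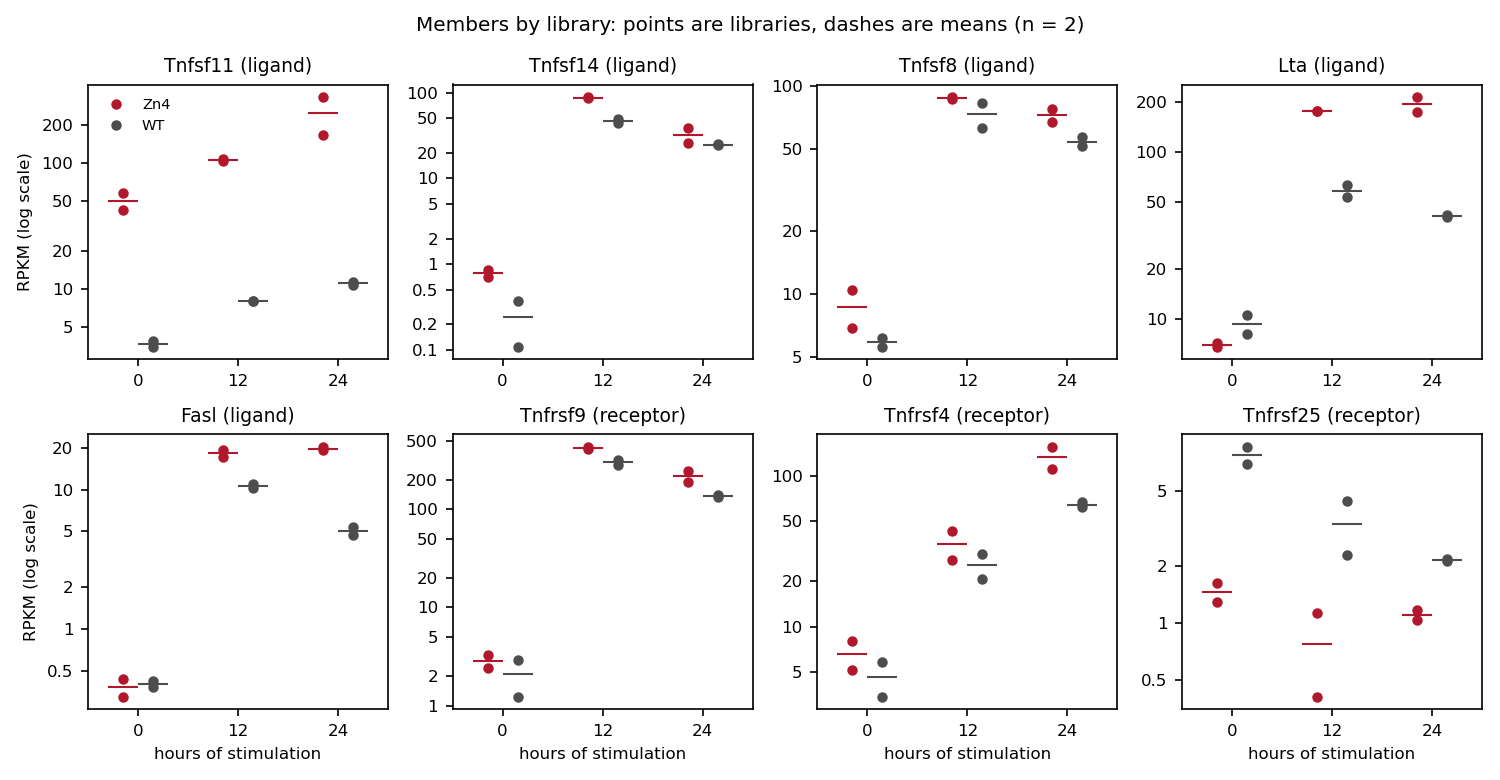
RPKM (log axis) of the 8 genes at 0, 12 and 24 h of stimulation, with a panel per gene; points are libraries and dashes are means of 2 libraries, Zn4 in red and to the left of WT in grey. Tnfsf11 is higher in every Zn4 library than in every WT library, and Tnfrsf25 is the one gene whose level is lower after stimulation in WT cells.

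Tnfsf11 (ENSMUSG00000022015.8), which encodes RANKL, a ligand best known for driving osteoclast and lymph node development, had the largest difference between genotypes. It lies on chromosome 14 of GRCm38, from 78277445 to 78308043 on the minus strand. Resting Zn4 cells had 42.7 and 57.3 RPKM, against 3.51 and 3.88 RPKM in resting WT cells. At 12 h the Zn4 libraries had 104 and 107 RPKM and the WT libraries 8.10 and 8.09 RPKM. At 24 h the Zn4 libraries had 332 and 166 RPKM and the WT libraries 11.5 and 10.9 RPKM. No 2 of the 6 groups overlapped, and the lowest Zn4 library, at rest, was above the highest WT library, at 24 h. The ratio of the group means was 13.5 at rest, 13.1 at 12 h and 22.2 at 24 h. The log2 difference was 3.43 at rest (SE 0.26, adjusted p = 7.2e-05), 3.55 at 12 h (SE 0.26, adjusted p = 6.3e-05) and 4.27 at 24 h (SE 0.26, adjusted p = 1.7e-05). It was called in every alternative tried at each time, between 3.53 and 3.58 at 12 h without any one of the libraries that stand apart or with the Y-linked covariate.

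Stimulation raised Tnfsf11 in both genotypes. By 12 h the log2 change was 1.08 in Zn4 cells (SE 0.26, adjusted p = 0.0039) and 0.96 in WT cells (SE 0.26, adjusted p = 0.0082), and by 24 h it was 2.23 in Zn4 cells and 1.38 in WT cells. The difference between these responses was 0.13 at 12 h (adjusted p = 0.91) and 0.85 at 24 h (SE 0.37, adjusted p = 0.20), neither of which was called. The 24 h value was 0.35 without replicate 1 of Zn4 at 24 h, and it was called without replicate 2 (1.34, adjusted p = 0.0046). From 12 h to 24 h Tnfsf11 changed by 1.14 in Zn4 cells (SE 0.26, adjusted p = 0.0083) and by 0.42 in WT cells (SE 0.26, adjusted p = 0.28). The Zn4 value was 0.65 without replicate 1 and 1.64 without replicate 2 of Zn4 at 24 h, and the WT value was called in 3 of 20 alternatives (adjusted p = 0.0084 to 0.041). In Zn4 cells the 12 h rise was not called under quantile normalization (adjusted p = 0.062) or with the Y-linked covariate (0.071), and the later rise not with the covariate (adjusted p = 0.20), without replicate 1 of Zn4 at 12 h (0.052) or in a fit of the compared libraries alone (0.057).

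The 250 bases before the Tnfsf11 start are shown because this gene had the largest difference at rest and at 24 h (chr14:78308044-78308293, minus strand, GRCm38.p6, RefSeq start, 5′ to 3′). Capitals would mark matches on either strand to 3 motifs: TGGGAA, the core of the sequence bound by Ikaros; TGANTCA, the AP-1 site; and the NF-kB consensus site. Of 32851 such windows in the RefSeq table, 21.6% hold the Ikaros core, 6.75% the AP-1 site and 7.25% the NF-kB site.
Tnfsf11: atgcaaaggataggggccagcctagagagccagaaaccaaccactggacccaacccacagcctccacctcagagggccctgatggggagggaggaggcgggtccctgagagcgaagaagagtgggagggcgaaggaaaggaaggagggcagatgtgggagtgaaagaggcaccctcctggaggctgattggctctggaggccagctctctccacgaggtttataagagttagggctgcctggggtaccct
The window holds no match to any of the 3 motifs.

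Tnfrsf25 (ENSMUSG00000024793.14), the death domain receptor DR3 that binds TL1A and costimulates T cells, moved the opposite way. It lies on chromosome 4, from 152115934 to 152120119 on the plus strand. Resting Zn4 cells had 1.29 and 1.63 RPKM, against 8.58 and 6.97 RPKM in resting WT cells. At 12 h the Zn4 libraries had 0.406 and 1.13 RPKM and the WT libraries 2.28 and 4.43 RPKM. At 24 h the Zn4 libraries had 1.17 and 1.04 RPKM and the WT libraries 2.19 and 2.14 RPKM. The Zn4 libraries were below the WT libraries at each time, and every Zn4 library was below every WT library. The Zn4 mean was 0.188 of the WT mean at rest, 0.229 at 12 h and 0.509 at 24 h.

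The log2 difference of Tnfrsf25 was -1.83 at rest (SE 0.25, adjusted p = 0.0024), which was called in all 21 alternatives, and -1.29 at 12 h (SE 0.25, adjusted p = 0.0088). At 24 h it was -0.59 (SE 0.25, adjusted p = 0.13), which was not called, though it was in 3 of 21 alternatives, including the fit without the 12 h libraries (adjusted p = 0.030). The 12 h call was lost without replicate 1 of Zn4 at 12 h (-0.98, adjusted p = 0.081), without replicate 2 of WT at 12 h (-0.92, adjusted p = 0.065) and in a fit of the compared libraries alone (adjusted p = 0.057). It held with the Y-linked covariate (-0.93, adjusted p = 0.027), without replicate 1 of WT at 12 h (-1.65, adjusted p = 0.0051) and without replicate 2 of Zn4 at 12 h (-1.59, adjusted p = 0.0099). The Zn4 values at 12 h rest on 26 and 71 reads, and limma-voom on reads recovered from the RPKM steps, with no pseudocount of 1 RPKM, gave -2.26 (SE 0.45).

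In WT cells Tnfrsf25 fell after stimulation, by 1.05 on the log2 scale at 12 h (SE 0.25, adjusted p = 0.0039) and by 1.46 at 24 h (SE 0.25, adjusted p = 4.5e-04). Its change in Zn4 cells was -0.50 at 12 h (SE 0.25, adjusted p = 0.095) and -0.22 at 24 h (SE 0.25, adjusted p = 0.43), neither of which was called. The Zn4 levels lie near the added 1 RPKM, which shrinks these changes. By limma-voom on recovered reads the 12 h change was -1.09 in Zn4 cells (adjusted p = 0.064) and -1.24 in WT cells. The difference between these was 0.14 (adjusted p = 0.94). At 24 h limma-voom gave -0.40 in Zn4 cells and -1.84 in WT cells. The 12 h change in Zn4 cells was called in 4 of 20 alternatives, among them median-ratio scaling (-0.66, adjusted p = 0.030) and the fit without replicate 2 of Zn4 at 12 h (-0.80, adjusted p = 0.028). The difference between the genotypes' responses at 24 h was 1.24 (SE 0.35, adjusted p = 0.064). With a pseudocount of 0.1 it was 1.42 (adjusted p = 0.19) and by limma-voom 1.44 (adjusted p = 0.17), also not called. It was called in 7 of 21 alternatives, the fit without the 12 h libraries among them (adjusted p = 0.022). The 12 h change in WT cells was -0.68 without replicate 1 of WT at 12 h (adjusted p = 0.034) and -0.64 with the Y-linked covariate (0.024). The window before the Tnfrsf25 start, chosen because this gene fell most at rest (chr4:152115684-152115933, plus strand, GRCm38.p6), holds none of the 3 motifs.
Tnfrsf25: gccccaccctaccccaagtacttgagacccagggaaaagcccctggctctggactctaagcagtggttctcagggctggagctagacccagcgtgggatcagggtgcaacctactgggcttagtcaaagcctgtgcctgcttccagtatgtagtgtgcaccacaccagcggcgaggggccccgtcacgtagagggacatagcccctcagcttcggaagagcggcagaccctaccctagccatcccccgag
A second RefSeq start inside the gene has 1 match to the NF-kB site, with its outer base 28 bases before that start.

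**Figure D2:**
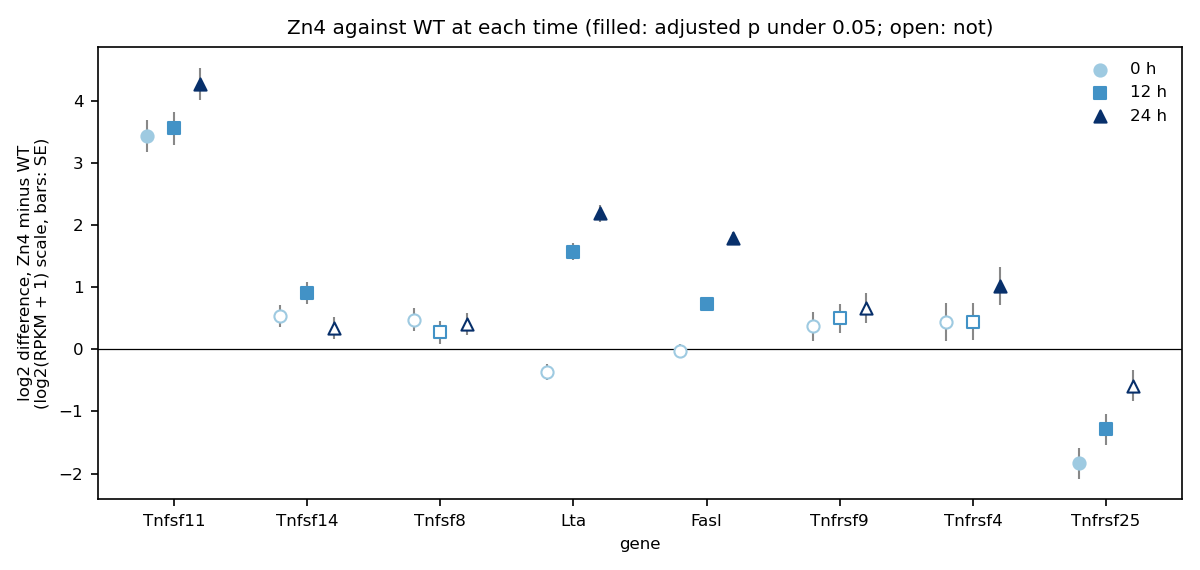
Log2 difference between Zn4 and WT (log2(RPKM + 1) scale) for each gene at 0, 12 and 24 h; bars are the standard error of the model, filled symbols have an adjusted p under 0.05. Tnfsf11 lies between 3.43 and 4.27 at all 3 times, Lta and Fasl lie near or below 0 at rest and reach 2.19 and 1.78 at 24 h, and Tnfrsf25 is below 0 throughout.

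Lta and Fasl did not differ beyond the test at rest and were higher in Zn4 cells after stimulation. Lta (ENSMUSG00000024402.5) encodes lymphotoxin alpha, a secreted cytokine that also joins lymphotoxin beta on the cell surface. It lies on chromosome 17, from 35203165 to 35205351 on the minus strand, 1.16 kb from Tnf and 6.84 kb from Ltb, and overlaps the microRNA gene Mir6974 on the same strand. Lta was at 7.12 and 6.81 RPKM in resting Zn4 cells, against 10.6 and 8.13 RPKM in resting WT cells. After 12 h the Zn4 libraries held 176 and 176 RPKM and the WT libraries 54.0 and 63.6 RPKM. After 24 h the Zn4 libraries held 173 and 214 RPKM and the WT libraries 41.0 and 42.0 RPKM. The Zn4 libraries were the lower ones at rest and the higher ones after stimulation, without overlap at any time.

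The Zn4 mean of Lta was 2.99 times the WT mean at 12 h and 4.66 times at 24 h. The log2 difference was -0.37 at rest (SE 0.13, adjusted p = 0.18), 1.57 at 12 h (SE 0.13, adjusted p = 1.4e-04) and 2.19 at 24 h (SE 0.13, adjusted p = 1.7e-05). Both later calls held in every alternative, with 1.45 to 1.67 at 12 h without any one of the libraries that stand apart or with the covariate. Lta rose in both genotypes, by a log2 change of 4.47 in Zn4 cells and 2.54 in WT cells at 12 h. At 24 h the change from rest was 4.60 in Zn4 cells and 2.05 in WT cells. The response was larger in Zn4 cells by 1.94 at 12 h (SE 0.19, adjusted p = 0.0011) and by 2.55 at 24 h (SE 0.19, adjusted p = 1.8e-04). Between 12 h and 24 h Lta changed by 0.13 in Zn4 cells (adjusted p = 0.51) and by -0.49 in WT cells (SE 0.13, adjusted p = 0.028). The WT value was not called without either WT library at 24 h (adjusted p = 0.13 and 0.12) or without replicate 2 of WT at 12 h (0.16).

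The window before the Lta start was added after its values were seen, to show a match to the Ikaros core (chr17:35205352-35205601, minus strand, GRCm38.p6). Its match, TTCCCA, is TGGGAA on the other strand and begins 16 bases before the start.
Lta: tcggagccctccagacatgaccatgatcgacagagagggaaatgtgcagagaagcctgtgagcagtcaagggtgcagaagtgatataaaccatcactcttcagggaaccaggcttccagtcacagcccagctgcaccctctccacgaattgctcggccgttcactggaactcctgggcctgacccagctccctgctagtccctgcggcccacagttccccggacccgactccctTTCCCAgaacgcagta
Such a match is found in 21.6% of all windows, and it shows no binding.

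Fasl (ENSMUSG00000000817.10) encodes the ligand of the death receptor Fas, which cytotoxic T cells use to kill targets and to limit their own expansion. It lies on chromosome 1, from 161780689 to 161788495 on the minus strand. Fasl was at 0.434 and 0.326 RPKM in resting Zn4 cells, against 0.424 and 0.380 RPKM in resting WT cells, levels that rest on 17 to 22 reads each. After 12 h of stimulation Zn4 libraries had 19.3 and 17.1 RPKM and the WT libraries 10.9 and 10.3 RPKM. After 24 h of stimulation Zn4 libraries had 19.2 and 20.3 RPKM and the WT libraries 5.39 and 4.69 RPKM. The groups overlapped at rest and stood apart at 12 h and 24 h. The Zn4 mean was 1.72 times the WT mean at 12 h and 3.92 times at 24 h.

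The log2 difference of Fasl was -0.02 at rest (SE 0.11, adjusted p = 0.96), 0.72 at 12 h (SE 0.11, adjusted p = 0.0020) and 1.78 at 24 h (SE 0.11, adjusted p = 1.6e-05). The 12 h value stayed between 0.64 and 0.81, and called, without any one of the libraries that stand apart or with the covariate. From rest to 12 h Fasl rose by 3.79 in Zn4 cells and by 3.05 in WT cells. From 12 h to 24 h it changed by 0.12 in Zn4 cells (SE 0.11, adjusted p = 0.44) and by -0.94 in WT cells (SE 0.11, adjusted p = 2.5e-04). The Zn4 libraries of these times overlapped, while the WT mean at 24 h was 0.476 of that at 12 h. The difference between responses was 1.81 from 0 h to 24 h (SE 0.15, adjusted p = 3.1e-04) and was called in all alternatives. It was 0.75 from 0 h to 12 h (SE 0.15, adjusted p = 0.022) and 1.06 from 12 h to 24 h (SE 0.15, adjusted p = 0.028), and each of these was called in 11 of 20 alternatives. With the Y-linked covariate neither was called (adjusted p = 0.077 and 0.084), and limma-voom on recovered reads gave an adjusted p of 0.23 for the 12 h one.

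Tnfsf14 (ENSMUSG00000005824.7) encodes LIGHT, which binds the receptors HVEM (Tnfrsf14) and lymphotoxin beta receptor. It lies on chromosome 17, from 57189492 to 57194177 on the minus strand, 39.7 kb from Cd70, and was low at rest. Resting Zn4 cells had 0.863 and 0.718 RPKM, against 0.378 and 0.110 RPKM in resting WT cells, from 42 and 36 reads and from 18 and 5 reads. At 12 h the Zn4 libraries had 88.8 and 86.2 RPKM and the WT libraries 44.4 and 48.7 RPKM. At 24 h the Zn4 libraries had 25.6 and 39.2 RPKM and the WT libraries 24.5 and 25.1 RPKM. Both genotypes were highest at 12 h, and the groups did not overlap at any time, although at 24 h the lower Zn4 library lay just above the higher WT library.

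The log2 difference of Tnfsf14 was 0.53 at rest (SE 0.18, adjusted p = 0.13), 0.90 at 12 h (SE 0.18, adjusted p = 0.0093) and 0.34 at 24 h (SE 0.18, adjusted p = 0.22). The difference at rest was called in 3 of 21 alternatives: with a pseudocount of 0.1 (1.49, adjusted p = 0.031) and without replicate 1 or 2 of Zn4 at 24 h (adjusted p = 0.030 and 0.031). The 12 h call was lost with a pseudocount of 0.1 (adjusted p = 0.11) and without replicate 1 of either WT (0.83, adjusted p = 0.064) or Zn4 at 12 h (0.88, adjusted p = 0.071), and held with the covariate (0.95, adjusted p = 0.036) and without replicate 2 of Zn4 at 12 h (0.92, adjusted p = 0.047). The 24 h difference was 0.041 without replicate 2 of Zn4 at 24 h, and it was called without replicate 1 (0.64, adjusted p = 0.026). The rise from 0 h to 12 h was 5.63 in Zn4 cells and 5.26 in WT cells on the log2(RPKM + 1) scale, and 6.78 and 7.74 by limma-voom on the recovered reads. From 12 h to 24 h Tnfsf14 fell by 1.44 in Zn4 cells (SE 0.18, adjusted p = 3.0e-04) and by 0.88 in WT cells (SE 0.18, adjusted p = 0.0064). The difference between these falls, -0.56, was not called (SE 0.25, adjusted p = 0.42). It was -0.26 without replicate 1 of Zn4 at 24 h, and it was called without replicate 2 (-0.86, adjusted p = 0.044). The WT fall was not called with a pseudocount of 0.1 (adjusted p = 0.080).

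The window before the Tnfsf14 start was also added after the values were seen, for its match to the AP-1 site, TGAGTCA, which begins 160 bases before the start (chr17:57194182-57194431, minus strand, GRCm38.p6).
Tnfsf14: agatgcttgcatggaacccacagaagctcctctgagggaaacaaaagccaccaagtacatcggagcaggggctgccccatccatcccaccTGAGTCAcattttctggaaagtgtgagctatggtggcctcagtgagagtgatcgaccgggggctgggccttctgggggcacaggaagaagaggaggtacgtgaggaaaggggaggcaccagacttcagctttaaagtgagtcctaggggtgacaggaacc
AP-1 is a factor pair induced by T cell receptor signals. The AP-1 site is found in 6.75% of all windows, and this match shows no binding. All 8 genes had an entry in the RefSeq table, with 10 windows in all. Of the windows not printed here, that before a start of Tnfrsf9 within the gene held matches to all 3 motifs within 43 bases of that start. Its Ikaros match overlaps its NF-kB matches. The other window of Tnfrsf9 and the windows of Fasl, Tnfsf8 and Tnfrsf4 held none.

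Tnfsf8 (ENSMUSG00000028362.2) encodes CD30 ligand and lies on chromosome 4, from 63831308 to 63861347 on the minus strand. Tnfsf8 was at 6.87 and 10.5 RPKM in resting Zn4 cells, against 5.57 and 6.11 RPKM in resting WT cells. Its 12 h level was 86.7 and 88.5 RPKM in Zn4 cells and 62.9 and 83.2 RPKM in WT cells. Its 24 h level was 66.9 and 77.6 RPKM in Zn4 cells and 51.3 and 56.8 RPKM in WT cells. The Zn4 libraries were above the WT libraries at each time, by differences that were not called. These were 0.48 at rest (SE 0.18, adjusted p = 0.19), 0.27 at 12 h (SE 0.18, adjusted p = 0.41) and 0.41 at 24 h (SE 0.18, adjusted p = 0.15). The resting one was called without replicate 1 of resting Zn4 (0.75, adjusted p = 0.045). Without any one of the libraries that stand apart or with the covariate the 12 h one lay between 0.073 and 0.44. Tnfsf8 rose by a log2 change of 3.22 in Zn4 cells and 3.42 in WT cells by 12 h, and the difference between these, -0.20, was not called (SE 0.26, adjusted p = 0.76). It stayed high at 24 h, at 2.94 above rest in Zn4 cells and 3.01 in WT cells.

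Tnfrsf9 (ENSMUSG00000028965.13) encodes 4-1BB, a costimulatory receptor of activated CD8 T cells, and reached the highest RPKM of the 8 genes. It lies on chromosome 4, from 150914562 to 150946102 on the plus strand, within the span of Camta1 on the opposite strand. Tnfrsf9 was at 2.40 and 3.31 RPKM in resting Zn4 cells, against 1.23 and 2.94 RPKM in resting WT cells. At 12 h the Zn4 libraries had 434 and 413 RPKM and the WT libraries 319 and 283 RPKM. At 24 h the Zn4 libraries had 249 and 188 RPKM and the WT libraries 139 and 133 RPKM. The groups overlapped at rest, and the Zn4 libraries were the higher ones at 12 h and 24 h.

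The Zn4 mean of Tnfrsf9 was 1.41 times the WT mean at 12 h and 1.61 times at 24 h. The log2 difference was 0.37 at rest (SE 0.24, adjusted p = 0.48), 0.49 at 12 h (SE 0.24, adjusted p = 0.23) and 0.67 at 24 h (SE 0.24, adjusted p = 0.083). None of these was called. Without any one of the libraries that stand apart or with the covariate the 12 h difference lay between 0.42 and 0.58, and it was called in the fit of the compared libraries alone (adjusted p = 0.026). The 24 h difference was called by limma-voom on recovered reads (0.67, SE 0.17, adjusted p = 0.021) and without either resting WT library (adjusted p = 0.015). The rise by 12 h was 6.79 in Zn4 cells and 6.67 in WT cells, or 6.26 to 7.08 in WT cells without 1 library, and the difference of 0.13 was not called (SE 0.34, adjusted p = 0.90). From 12 h to 24 h Tnfrsf9 fell by 0.97 in Zn4 cells (SE 0.24, adjusted p = 0.012) and by 1.14 in WT cells (SE 0.24, adjusted p = 0.0079). With the Y-linked covariate neither fall was called (adjusted p = 0.32 in Zn4 and 0.062 in WT). Without replicate 1 at 12 h of the genotype concerned the adjusted p was 0.073 in Zn4 and 0.063 in WT, without replicate 2 at 24 h it was 0.083 in Zn4 and 0.057 in WT.

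Tnfrsf4 (ENSMUSG00000029075.6) encodes OX40, the receptor of the ligand encoded by Tnfsf4, and lies on chromosome 4, from 156013843 to 156016612 on the plus strand. Its level was highest at 24 h. Resting Zn4 cells had 5.12 and 8.06 RPKM, against 3.43 and 5.84 RPKM in resting WT cells. At 12 h the Zn4 libraries had 27.4 and 42.9 RPKM and the WT libraries 20.6 and 30.2 RPKM. At 24 h the Zn4 libraries had 155 and 111 RPKM and the WT libraries 62.2 and 66.4 RPKM. The groups overlapped at rest and at 12 h and stood apart at 24 h, where the Zn4 mean was 2.07 times the WT mean.

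The log2 difference of Tnfrsf4 was 0.44 at rest (SE 0.30, adjusted p = 0.52), 0.44 at 12 h (SE 0.30, adjusted p = 0.42) and 1.02 at 24 h (SE 0.30, adjusted p = 0.043). Without any one of the libraries that stand apart or with the covariate the 12 h one lay between 0.13 and 0.76 and was not called. The 24 h call was held in 15 of 21 alternatives. It was lost without replicate 1 of Zn4 at 24 h (0.78, adjusted p = 0.26), without replicate 1 or 2 of WT at 24 h (0.18 and 0.15), without the 12 h libraries (0.0501), under quantile normalization (0.0503) and with a pseudocount of 0.1 (0.062). From 12 h to 24 h Tnfrsf4 rose by 1.90 in Zn4 cells (SE 0.30, adjusted p = 0.0013) and by 1.33 in WT cells (SE 0.30, adjusted p = 0.012), and the difference of 0.58 was not called (SE 0.43, adjusted p = 0.69). With the Y-linked covariate these rises were 1.32 in Zn4 cells (adjusted p = 0.14) and 1.01 in WT cells (0.0995). The WT rise was also lost without replicate 1 of WT at 12 h (1.06, adjusted p = 0.10) and without replicate 1 or 2 of WT at 24 h (0.055 and 0.076).

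**Figure D3:**
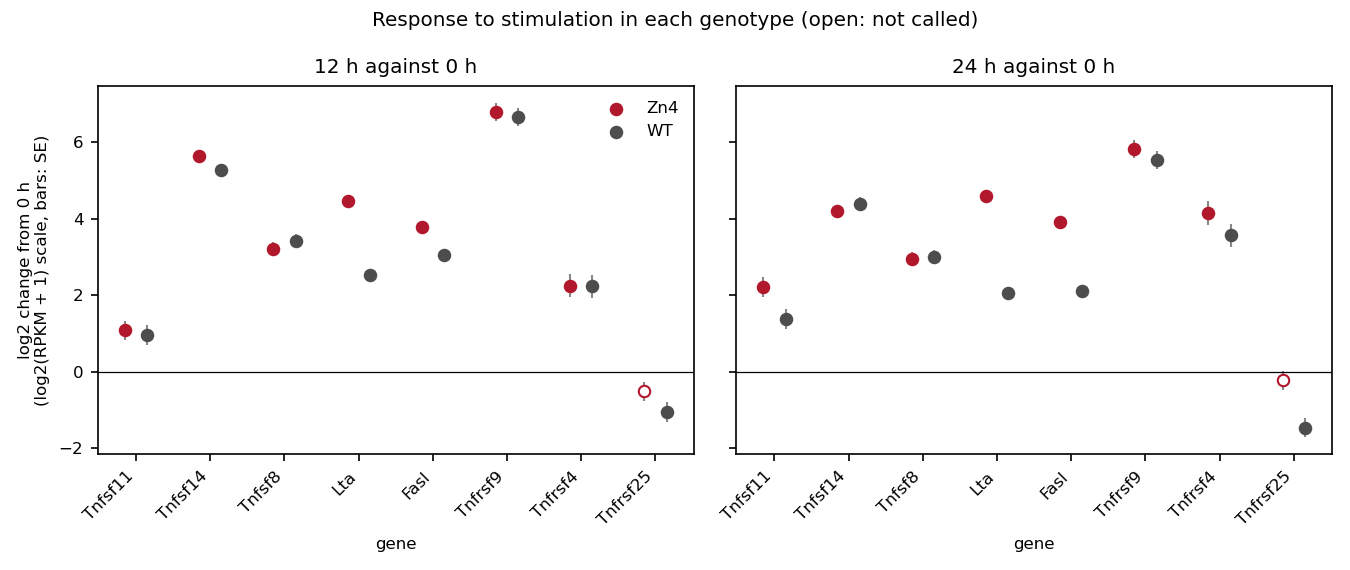
Log2 change (log2(RPKM + 1) scale) from 0 h to 12 h on the left and from 0 h to 24 h on the right for each gene, with Zn4 in red left of WT in grey; bars are the standard error of the model and open symbols were not called. Lta and Fasl are the genes for which the response is called larger in Zn4 cells, and Tnfrsf25 is the one that falls in WT cells.

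Over all 8 genes, stimulation for 12 h was followed by a called change of 7 genes in Zn4 cells, all rises (73% of all tested genes were called, 43.5% higher and 29.6% lower), and of 8 genes in WT cells, 7 rises and the fall of Tnfrsf25 (70.2%, 43.1% higher and 27% lower). At 24 h against rest the same 7 genes rose in Zn4 cells (74.7% called over all genes, 48.7% higher and 26% lower) and the same 8 changed in WT cells (73.9%, 48.3% higher and 25.6% lower). The median change of the 8 genes by 24 h was 4.03 in Zn4 cells and 2.56 in WT cells, beside 0.31 in each genotype over all tested genes. After median-ratio scaling that shift of all genes was 0 in Zn4 cells and -0.0022 in WT cells, and the 7 rises and the fall stood. That scaling evened the split over all genes: at 12 h 4532 genes were higher and 4703 lower than at rest in Zn4 cells (5533 and 3763 without it) and 4363 and 4527 in WT cells (5488 and 3440). At 24 h against rest the split was 4767 higher and 4682 lower in Zn4 cells (6194 and 3315 without it) and 4708 and 4634 in WT cells (6153 and 3256). Between 12 h and 24 h it was 2319 higher and 2067 lower in Zn4 cells (2875 and 1398 without it) and 1734 and 1455 in WT cells (2169 and 883). Between 12 h and 24 h 4 genes were called in Zn4 cells (33.6% of all genes, 22.6% higher and 11% lower), with Tnfsf11 and Tnfrsf4 up and Tnfsf14 and Tnfrsf9 down, and 5 in WT cells (24% of all genes, 17% higher and 6.94% lower), with Tnfrsf4 up and Tnfsf14, Lta, Fasl and Tnfrsf9 down. The response differed between genotypes for 2 genes at 12 h against rest, where 5.12% of all genes were called (1.54% higher and 3.58% lower), for 2 genes at 24 h against rest (8.24%, 3.88% higher and 4.35% lower) and for 1 gene at 24 h against 12 h (0.786%, 0.652% higher and 0.134% lower). Each of these was larger in Zn4 cells. These comparisons share libraries with each other.

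**Figure D4:**
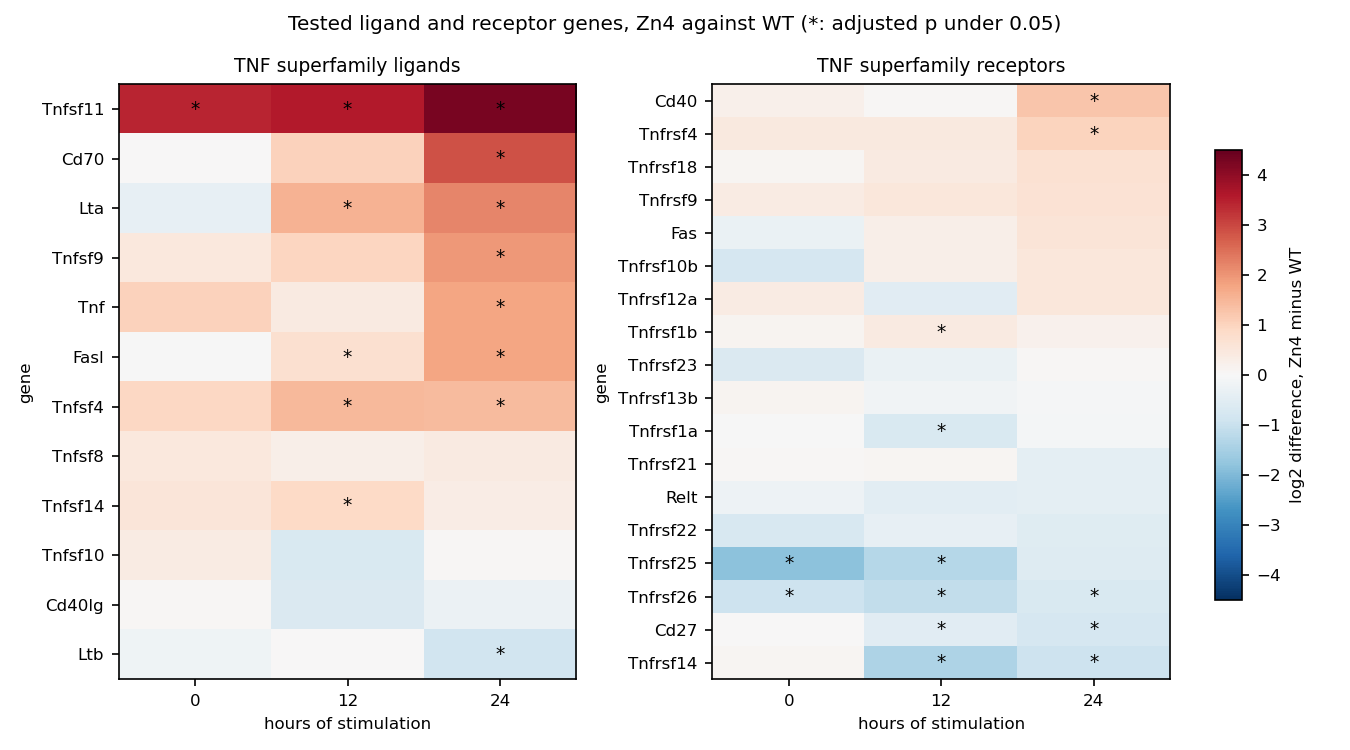
Log2 difference between Zn4 and WT (colour) at 0, 12 and 24 h for the 12 tested ligands and the 18 tested receptors of the superfamily, sorted by the 24 h value; stars have an adjusted p under 0.05. Red, higher in Zn4, fills the upper part of the ligand panel at 24 h, and the receptor panel holds both colours.

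The family was taken from fixed lists of 18 ligands and 28 receptors, of which 12 and 18 were tested and the others are not listed in the table. These lists include the 8 genes, so the counts and medians below are not separate from theirs. At rest 1 ligand, Tnfsf11, was higher in Zn4 cells, and 2 receptors, Tnfrsf25 and Tnfrsf26, were lower, where 3.76% of all tested genes were higher and 1.96% lower. At 12 h 5 ligands were higher and none was lower, with a median difference of 0.81, and 1 receptor was higher and 5 were lower, with a median of -0.22, where 4.85% of all tested genes were higher and 8.28% lower. At 24 h 7 ligands were higher and 1 was lower, with a median of 1.60, and 2 receptors were higher and 3 lower, with a median of 0.0012, where 9.4% of all tested genes were higher and 9.96% lower. The medians over all tested genes were -0.01 at 12 h and -0.02 at 24 h, and no called share of the lists was tested against them. The number of ligands called ranged from 4 to 9 at 12 h and from 6 to 9 at 24 h over the alternatives, and that of receptors from 2 to 7 at 12 h and from 2 to 8 at 24 h.

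Among the ligands besides the 8 genes, Cd70, the ligand of CD27, was at 20.1 and 6.32 RPKM in Zn4 cells at 24 h, against 0.685 and 0.712 RPKM in WT cells. Its log2 difference was 2.87 (SE 0.37, adjusted p = 7.9e-04). Tnfsf9, the 4-1BB ligand and so the partner of Tnfrsf9, was at 24.2 and 11.3 RPKM in Zn4 cells at 24 h and 3.53 and 3.52 RPKM in WT cells (difference 1.96, SE 0.32, adjusted p = 0.0028). Tnfsf4, the OX40 ligand and partner of Tnfrsf4, averaged 10.3 ± 0.28 RPKM in Zn4 cells and 3.17 ± 1.16 RPKM in WT cells at 12 h (SD, n = 2 each). Its difference was 1.47 at 12 h (SE 0.24, adjusted p = 0.0035). These 3 calls held in every alternative. For Cd70 and Tnfsf9 replicate 1 was the higher of the Zn4 libraries at 24 h, and both replicates were above the WT libraries.

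The neighbours of Lta on chromosome 17 are named for their place, after their values were seen. Tnf, the founding cytokine of the family, was at 82.4 and 97.3 RPKM in Zn4 cells at 24 h and at 19.8 and 31.9 RPKM in WT cells, a difference of 1.79 (SE 0.35, adjusted p = 0.0072). Ltb, which encodes lymphotoxin beta, the membrane partner of lymphotoxin alpha, was at 25.3 and 50.8 RPKM in Zn4 cells at 24 h and at 69.4 and 62.5 RPKM in WT cells. Its difference was -0.86 (SE 0.26, adjusted p = 0.049), opposite in sign to those of Tnf and Lta. The Tnf call was lost without replicate 1 of WT at 24 h (1.46, adjusted p = 0.066). The Ltb call was held in 5 of 21 alternatives and was -0.37 (adjusted p = 0.26) without replicate 1 of Zn4 at 24 h.

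Of the receptors, Tnfrsf14 (HVEM), a receptor for both LIGHT and lymphotoxin alpha, averaged 6.82 ± 1.44 RPKM in Zn4 cells and 19.5 ± 4.48 RPKM in WT cells at 12 h (SD, n = 2 each). Its difference was -1.38 at 12 h (SE 0.27, adjusted p = 0.0083) and -0.93 at 24 h (SE 0.27, adjusted p = 0.037). The 12 h call was lost with the Y-linked covariate (-1.16, adjusted p = 0.054) and without replicate 1 of Zn4 (0.081) or replicate 2 of WT at 12 h (0.080). The 24 h call was lost in 6 of 21 alternatives. Cd27, the receptor for Cd70, averaged 58.5 ± 2.31 RPKM in Zn4 cells and 98.8 ± 2.83 RPKM in WT cells at 24 h, a difference of -0.75 (SE 0.08, adjusted p = 2.5e-04) that held in all alternatives. Cd40 was at 1.16 to 1.77 RPKM in Zn4 cells at 24 h and at 0.0121 to 0.0311 RPKM in WT cells (difference 1.26, SE 0.13, adjusted p = 2.5e-04). Its WT values lie far below the added 1 RPKM, and over the alternatives the difference ran from 1.08 to 5.79. The Zn4 values lie just above the 1 RPKM of the filter, so Cd40 may have been tested only through the group called higher. Tnfrsf26, a mouse receptor in a cluster of close paralogs among which reads may be split, was at 44.5 to 49.3 RPKM in resting Zn4 cells and 86.6 to 93.1 RPKM in resting WT cells (difference -0.93, SE 0.17, adjusted p = 0.012). That call was lost without replicate 1 of resting WT (adjusted p = 0.062), without replicate 2 of resting Zn4 (0.080) and in a fit of the resting libraries alone (0.058). Tnfrsf1a, a death domain receptor for TNF, was lower in Zn4 cells by a log2 difference of -0.69 at 12 h (SE 0.15, adjusted p = 0.017), a call lost in 4 of 20 alternatives, the fit with the Y-linked covariate among them (-0.54, adjusted p = 0.096).

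**Figure D5:**
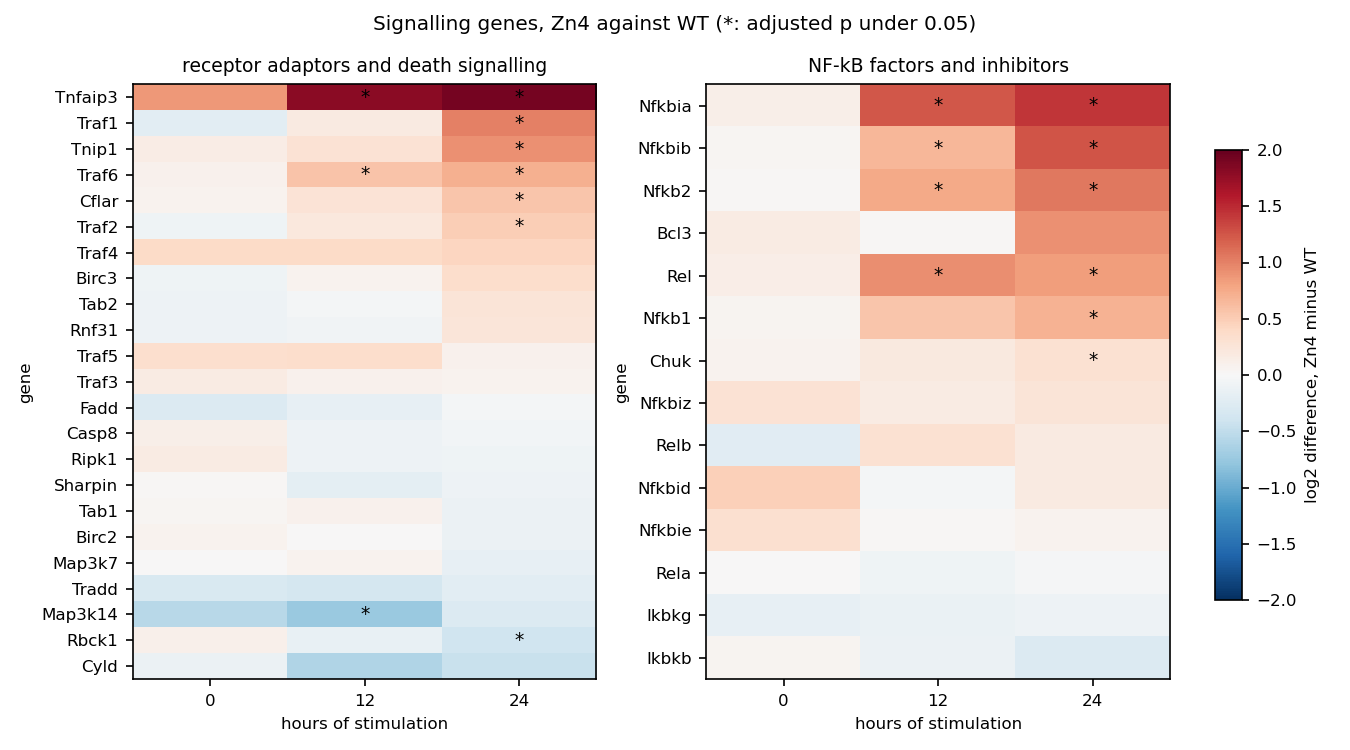
Log2 difference between Zn4 and WT (colour) at 0, 12 and 24 h for 23 adaptor and death-signalling genes and 14 NF-kB genes, sorted by the 24 h value; stars have an adjusted p under 0.05. No star stands at rest, and the inhibitor genes Tnfaip3, Nfkbia and Nfkbib lead at 24 h.

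Genes that act below the receptors were listed as 23 adaptors and death-signalling genes and 14 NF-kB factors and inhibitors, all of which were tested. None of either list was called between genotypes at rest by limma, where 5.72% of all tested genes were, and at most 1 adaptor and 0 NF-kB genes were in any alternative. At an unadjusted p under 0.05 by limma, 5 adaptors and 3 NF-kB genes passed. The share of all tested genes under that threshold was not counted, so these counts cannot be set against it. At 12 h 2 adaptors were higher and 1 lower in Zn4 cells, and 4 NF-kB genes were higher and none lower, where 4.85% of all tested genes were higher and 8.28% lower. At 24 h 6 adaptors were higher and 1 lower, with a median of 0.06, and 6 NF-kB genes were higher and none lower, with a median of 0.28, where 9.4% of all tested genes were higher and 9.96% lower. Over the alternatives the number called ranged from 1 to 5 adaptors and 1 to 6 NF-kB genes at 12 h, and from 2 to 8 adaptors and 3 to 7 NF-kB genes at 24 h. Tnfaip3, which encodes the ubiquitin-editing inhibitor A20, had the largest difference, 1.80 at 12 h (SE 0.26, adjusted p = 0.0021) and 1.91 at 24 h (SE 0.26, adjusted p = 0.0012). It averaged 50.8 ± 2.59 RPKM in Zn4 cells and 13.8 ± 0.678 RPKM in WT cells at 12 h (SD, n = 2 each).

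Nfkbia, the gene of the inhibitor IkB alpha, was higher in Zn4 cells by 1.24 at 12 h (SE 0.24, adjusted p = 0.0090) and by 1.43 at 24 h (SE 0.24, adjusted p = 0.0035). Rel, the NF-kB subunit c-Rel, was higher by 0.93 at 12 h (SE 0.16, adjusted p = 0.0051) and by 0.83 at 24 h, a call lost without replicate 1 of Zn4 at 24 h (0.67, adjusted p = 0.062). Nfkb2, which encodes the p100 precursor, was higher by 0.76 at 12 h and 1.05 at 24 h, and Nfkbib, the gene of IkB beta, by 0.66 and 1.26. Traf1, an adaptor for 4-1BB, was higher by 1.01 at 24 h (SE 0.23, adjusted p = 0.015), and without replicate 1 of Zn4 at 24 h the difference was 0.56. The Traf1 call was lost without replicate 1 or 2 of WT at 24 h (adjusted p = 0.086 and 0.076) and in a fit of the compared libraries alone (0.098). Map3k14, the kinase NIK, was lower by a log2 difference of -0.74 at 12 h (SE 0.19, adjusted p = 0.031). Calls lost when a 12 h library was left out were those of Nfkbia (adjusted p up to 0.071), Nfkb2 (0.093), Nfkbib (0.12), Traf6 (0.20, with a difference of 0.57 over all libraries) and Map3k14 (0.15) at 12 h. With the Y-linked covariate the 12 h calls of Map3k14 (adjusted p = 0.11), Traf6 (0.15) and Nfkbib (0.080) were also lost. Under quantile normalization those of Map3k14 (adjusted p = 0.060) and Traf6 (0.053) were lost, and each of these 2 held in 12 of 20 alternatives. The calls of Tnfaip3 at both times, Rel at 12 h, and Nfkbia, Nfkbib and Nfkb2 at 24 h held in every alternative.

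After 24 h of stimulation against rest, 11 of 12 ligands rose in Zn4 cells and 10 in WT cells, and 1 fell in each. Of the 18 receptors 8 rose and 6 fell in Zn4 cells, and 6 rose and 7 fell in WT cells. Of the 23 adaptors 5 rose and 9 fell in Zn4 cells, and 6 rose and 9 fell in WT cells, and of the 14 NF-kB genes 4 rose and 6 fell in Zn4 cells, and 1 rose and 8 fell in WT cells. Of all tested genes 48.7% rose and 26% fell in Zn4 cells, and 48.3% rose and 25.6% fell in WT cells. Tnfrsf26 changed by -3.86 in Zn4 cells and by -4.11 in WT cells, and Tnfsf4 rose by 3.86 in Zn4 cells and by 3.37 in WT cells. Tnfrsf21 (DR6) rose by 1.91 in Zn4 cells and by 2.39 in WT cells, and Tnfrsf10b, the mouse TRAIL receptor, by 2.52 in Zn4 cells and by 1.22 in WT cells. Tnfaip3 changed by -1.70 in Zn4 cells and by -2.73 in WT cells. Of the other signalling genes with large changes, Map3k14 changed by -1.56 in Zn4 cells and by -1.84 in WT cells, and Birc2 (cIAP1) by -1.62 in Zn4 cells and by -1.43 in WT cells. Nfkb1 rose by 2.04 in Zn4 cells and by 1.39 in WT cells. Nfkbie and Ikbkb fell in Zn4 cells (-1.17 and -1.05) and in WT cells (-0.93 and -0.72). Nfkbib and Traf1 rose in Zn4 cells by 1.05 and 1.14, or by 0.66 and 0.75 after median-ratio scaling, and had changes of -0.17 and -0.084 in WT cells that were not called (adjusted p = 0.33 and 0.76). Without replicate 1 of Zn4 at 24 h the Traf1 rise was 0.68. Tnip1, Nfkbia, Bcl3 and Relb fell in Zn4 cells, with log2 changes of -1.09, -1.03, -0.90 and -0.90, and in WT cells, with log2 changes of -1.86, -2.35, -1.66 and -1.31.

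The patterns over the 12 libraries differed among the 8 genes. Pearson's r of log2(RPKM + 1), a description over libraries that share 6 groups, was 0.99 for Tnfsf8 with Tnfrsf9 and with Tnfsf14, and 0.99 for Lta with Fasl. With Tnfsf14, Tnfsf8 and Tnfrsf9 it was also high, at 0.92 for Lta and 0.95 to 0.96 for Fasl. Tnfsf11 reached no more than 0.59 with any other of the 8 (Lta), and -0.84 with Tnfrsf25. Over all tested genes the highest r with Tnfsf11 was that of Cldn12 (0.985), Slc7a7 (0.985) and Ccr8 (0.984). For Lta it was that of Nek6 (0.990), Lad1 (0.986) and Fasl (0.985), and for Fasl that of Ece1 (0.994), Nek6 (0.992) and Nploc4 (0.991). For Tnfsf14 the 3 highest were Nip7, Tmed9 and Clptm1l, for Tnfsf8 Gm8185, Gsk3a and Spry1, for Tnfrsf9 Bysl, Iars and Crls1, and for Tnfrsf4 Ptms, Lztr1 and Polk, with r from 0.989 to 0.999. Tnfrsf25 was most like Nlk (0.953), Mitd1 and Snapin.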

How the data were processed

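RNA of 12 libraries was measured by stranded single-end mRNA sequencing, per the labels' protocols. The authors aligned reads with TopHat2 2.0.12 and counted them with HTSeq 0.6.1 on mm10 (GRCm38), per the submitters' processing notes; the strand setting is not given in the sources used here. The deposited values are RPKM, reads scaled by transcript length and library size. Of 12885 symbols, 7 stand on 2 lines, and the first was used.

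Values were analysed as log2(RPKM + 1) for the 12726 genes that reached 1 RPKM in 2 or more libraries. Limma 3.58.1 (R 4.3.3) fitted 6 group means with a mean-variance trend (6 residual degrees of freedom), and 12 comparisons were adjusted by the Benjamini-Hochberg method. The fit was tested on simulated data for Zn4 against WT at 24 h. In the simulation 200 of 12726 genes were changed. The fit recovered 67.4% of 92 changes of 1 on the log2 scale and 100% of 108 changes of 2, with 11 false calls. The data themselves gave 2464 calls in this comparison, so the share recovered there may differ. Differences of 1 or less may go uncalled. Whole reads were recovered from the RPKM steps for 100% of symbols (tolerance 0.02 reads), giving library totals of 24263907 to 33389808 reads and a limma-voom alternative. For 7151 of 12885 symbols the annotated length gave whole reads, and for the others the shortest length that did was used. Tnfsf14 and Fasl are among the others, at 1859 and 1935 bp against annotated lengths of 1847 and 1937 bp.

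The 8 genes and the lists were chosen with earlier results of these data known. Named besides the 8 genes are up to 4 called genes per list with the largest change between genotypes at each time and from 0 h to 24 h, the 3 genes most correlated with each of the 8, and exceptions stated where they occur. Alternatives were a pseudocount of 0.1, no filter, median-ratio scaling, quantile normalization, fits of the compared libraries alone, the replicate number as a block, the summed Y-linked level as a covariate, limma-voom, leaving out each library, and, added after seeing the data, leaving out the 12 h libraries. Positions are from GENCODE M21 (GRCm38). Upstream sequences are from RefSeq (GRCm38.p6). The result of 1 marker list is not reported here.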

Additional observations from a re-analysis of the deposited data

Results flagged for a closer look

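For Lta and Fasl the response to stimulation differed between genotypes by a test of the difference itself, the genotype by time term of the limma fit. For Lta the response was larger in Zn4 than in WT cells by 1.94 on the log2(RPKM + 1) scale from 0 h to 12 h (adjusted p = 0.0011) and by 2.55 from 0 h to 24 h (adjusted p = 1.8e-04). Both Zn4 libraries were above both WT libraries at 12 h and at 24 h. For Fasl it was larger by 0.75 from 0 h to 12 h (adjusted p = 0.022), by 1.06 from 12 h to 24 h (adjusted p = 0.028) and by 1.81 from 0 h to 24 h (adjusted p = 3.1e-04). The 3 Fasl values share libraries with each other. With 2 libraries per group no group was large enough to test for a library far from the others.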

How the results depend on the processing

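All 96 results of the 8 genes (12 comparisons) were recomputed under 20 alternatives, and 40 of them also without the 12 h libraries. Tnfsf11 at all 3 times, Tnfrsf25 at rest, and Lta and Fasl at 12 h and 24 h kept their genotype calls in all of these, as did the difference in response from 0 h to 24 h of Lta and Fasl. The count of 4 genes from 12 h to 24 h in Zn4 cells was 1 with the Y-linked covariate. The count of 2 genes whose response differed at 12 h was 1 with a pseudocount of 0.1, in the fit of the compared libraries alone, with the covariate and by limma-voom. The count of 1 gene for the response from 12 h to 24 h was 0 with the pseudocount, in the fit of the compared libraries alone and with the covariate; over all genes these gave 0, 10 and 7 calls, against 100 in the report. Leaving out 1 library gave 3 to 5 genes for the genotypes at 12 h, 2 to 6 from 12 h to 24 h in WT cells, 2 to 4 in Zn4 cells, 1 to 2 for the response at 12 h and 0 to 3 for that from 12 h to 24 h. The cause was not tested, though a fit without 1 library also has fewer samples.

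Every change of sign was in a value that was not called. With the Y-linked covariate Tnfrsf25 had 0.26 from 0 h to 12 h in Zn4 cells, Lta -0.079 and Tnfrsf25 -0.48 from 12 h to 24 h in Zn4 cells, and Tnfsf8 -0.034 for the difference in that response. For the difference in response at 12 h, the values with a pseudocount of 0.1 and by limma-voom were -0.018 and -0.037 for Tnfsf11, -0.58 and -0.96 for Tnfsf14, -0.039 and -0.075 for Tnfrsf9 and -0.054 and -0.090 for Tnfrsf4, and under quantile normalization -0.076 for Tnfsf11 and -0.024 for Tnfrsf4. Leaving out 1 library, the resting genotype difference ran from -0.081 to 0.033 for Fasl and -0.043 to 0.78 for Tnfrsf9, and the change from 12 h to 24 h in Zn4 cells from -0.023 to 0.28 for Lta and -0.022 to 0.58 for Tnfrsf25. The difference in response then ran, at 12 h against 0 h, from -0.082 to 0.33 for Tnfsf11, -0.48 to 0.069 for Tnfsf8, -0.28 to 0.54 for Tnfrsf9 and -0.31 to 0.32 for Tnfrsf4. At 24 h against 12 h it ran from -0.063 to 0.34 for Tnfsf8 and -0.028 to 0.37 for Tnfrsf9, and at 24 h against 0 h from -0.49 to 0.11 for Tnfsf14, -0.34 to 0.21 for Tnfsf8 and -0.11 to 0.71 for Tnfrsf9.

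Over all genes, the fit of the compared libraries alone called 112 genes at rest, against 728, and the covariate called 892 at 12 h, against 1671. Leaving out 1 library gave 1061 to 2778 calls at 24 h, against 2464, and without the 12 h libraries 455 genes were called at rest. From 12 h to 24 h the covariate gave 847 calls in Zn4 cells, against 4273, and 1511 in WT cells, against 3052; the fit of the compared libraries alone gave 5094 in WT cells. The difference in response at 12 h gave 318 calls with the covariate, against 651, and that at 24 h gave 550 in the fit of the compared libraries alone, which leaves out the 12 h libraries, against 1048. The response from 12 h to 24 h gave 52 calls under quantile normalization and 43 by limma-voom, against 100. Without 1 library the lowest and highest counts were 437 and 815 at rest, 743 and 1834 at 12 h, 2424 and 4656 from 12 h to 24 h in Zn4 cells, 1347 and 3391 in WT cells, and 236 and 789, 325 and 1524, and 1 and 450 for the differences in response at 12 h, at 24 h and from 12 h to 24 h.

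Replicate numbers are shared by the groups, but nothing in the labels ties them to an animal or day. Deviations of same-numbered libraries from their group means correlated between -0.12 and 0.61 over the 15 pairs of groups, the highest being that of resting Zn4 and WT. With the replicate number as a block, 95 of 96 results kept their side of the threshold, and the change of Tnfsf8 from 12 h to 24 h in WT cells, -0.42, was then called (adjusted p = 0.041). No count over the 8 genes moved by more than 1.5 times, and over all genes the response from 12 h to 24 h gave 49 calls, against 100. The block is 1 shift per gene shared by all 6 groups. It therefore cannot take up a pairing found at 1 time only, such as that of the resting libraries (0.61, against 0.19 for Zn4 and WT at 12 h). Depth limits Tnfsf14 and Fasl at rest, with 5 to 42 reads per library, so small differences there may not be detectable.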

Other observations

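The 2 Zn4 libraries at 24 h differed from each other in several family and NF-kB genes, seen after their values were known. Replicate 1 was higher for Tnfsf11 (332 and 166 RPKM in replicates 1 and 2), Cd70 (20.1 and 6.32 RPKM), Tnfsf9 (24.2 and 11.3 RPKM), Tnfsf4 (42.5 and 24.6 RPKM), Traf1 (145 and 76.4 RPKM), Tnfaip3 (66.3 and 31.4 RPKM) and Nfkbia (272 and 148 RPKM). Replicate 1 was lower for Lta (173 and 214 RPKM), Tnfsf14 (25.6 and 39.2 RPKM), Tnf (82.4 and 97.3 RPKM) and Ltb (25.3 and 50.8 RPKM). It was the higher library for 12 of 14 NF-kB genes and 15 of 23 adaptor genes, but for 4 of 12 ligands and 10 of 18 receptors, beside 43.0% of all tested genes. In replicates 1 and 2 of WT at 24 h Tnfsf11 was at 11.5 and 10.9 RPKM, Nfkbia at 70.8 and 76.7 RPKM and Tnf at 19.8 and 31.9 RPKM. Both Zn4 values were above both WT values for Tnfsf11, Cd70, Tnfsf9, Tnfsf4, Traf1, Tnfaip3 and Nfkbia.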
